A study of Arabidopsis thaliana with 12 samples.

Results

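The Arabidopsis thaliana genes of plastid lipid metabolism, AT4G13550, FATB (AT1G08510) and AT2G46910, were followed across 6 wild-type (WT) and 6 pete2 mutant samples. They are 3 of the 691 genes that had a probe of their own on the array, and each is read by 1 probe (probes 640, 1421 and 21 in the order above). They were chosen from an earlier analysis of the same WT and pete2 samples, in which AT4G13550 was among the largest differences upward, AT2G46910 among the largest downward and FATB was a measured lipid gene without a clear difference. Their differences between the groups are therefore given as a description, with no test.

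Both groups are ecotype Columbia 0 and were grown on soil, and total RNA was hybridised. The pete2 plants lack 1 of the 2 isoforms of plastocyanin, a mobile copper protein of the thylakoid lumen that hands electrons from the cytochrome b6f complex to photosystem I, and the WT plants carry both. The labels give no age, organ, kind of allele or number of plants per sample, and do not say whether the 6 numbered samples of a group came from separate plants. The p-values given for other genes therefore rest on the spread among these samples alone, and that spread may be technical. Neither plastocyanin gene had a probe of its own, so the genotype was not checked on its target. Of 4 mesophyll marker genes 1 had its own probe, the antenna protein gene LHB1B2 (AT2G34420), with deposited values from 1.32 to 46.4 in WT (median 27.4) and from 21.9 to 82.7 in pete2 (median 28.2). The root, flower, vascular, guard cell and senescence markers had none, so the make-up of the tissue was not examined. In such bulk RNA, fewer cells of a type and less RNA per cell cannot be told apart.

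Chloroplasts make nearly all fatty acids of a plant cell. Acyl chains are built on acyl carrier protein (ACP) in the stroma. They are then either used inside the plastid for the galactolipids that form most of the thylakoid membrane, or released from ACP by thioesterases and exported. FATB encodes the thioesterase that prefers saturated chains, mainly palmitate. AT4G13550 encodes a chloroplast lipase, known as HEAT INDUCIBLE LIPASE1, that frees polyunsaturated fatty acid from the galactolipid monogalactosyldiacylglycerol in heated leaves. AT2G46910 belongs to the fibrillins, or plastid lipid-associated proteins, a family of which several members coat plastoglobules, the lipid droplets attached to thylakoids.

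Values are given as deposited, in linear arbitrary units, and after quantile normalization, which brings the samples towards a common distribution by rank. The deposited scale ends at 0 and just under 100. No background level comes with it, so a value listed at 0 has no measured level and was set to a floor (0.00560 normalized units) before log2 was taken. The floor was set after normalization, so samples with unequal shares of zeros did not end with the same distribution. In samples with many zeros, low values above 0 could be raised by the normalization. Probes at 0 made up 15.7% to 17.8% of the array in the WT samples. In pete2 they made up 17.2% and 17.1% in samples 1 and 2, 21.6% and 21.5% in samples 3 and 4, and 30.7% and 28.6% in samples 5 and 6. The median deposited intensity lay between 0.129 and 0.193 in WT and between 0.0543 and 0.183 in pete2.

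AT4G13550, the lipase gene, was higher in all pete2 samples than in any WT sample, and it was never listed at 0. Its deposited intensity in WT samples 1 to 6 was 0.222, 0.265, 0.373, 0.362, 0.385 and 0.360. In pete2 samples 1 to 6 it was 1.14, 1.11, 0.985, 0.978, 0.843 and 0.825. The groups did not overlap, and a wide gap separated the highest WT sample from the lowest pete2 sample. As deposited, 0.994% of the 3321 probes tested had all pete2 samples above all WT samples, and after normalization 3.31% had. Normalized intensities averaged 0.276 ± 0.0326 over the WT samples and 1.13 ± 0.0494 over the pete2 samples (SD, n = 6 each). The log2 difference, pete2 minus WT, was 2.04 ± 0.133 (SE), which is 4.12-fold. This SE, like those below, is the moderated one of the limma fit. It draws on the spread of other probes and takes the 12 samples as independent.

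**Figure D1:**
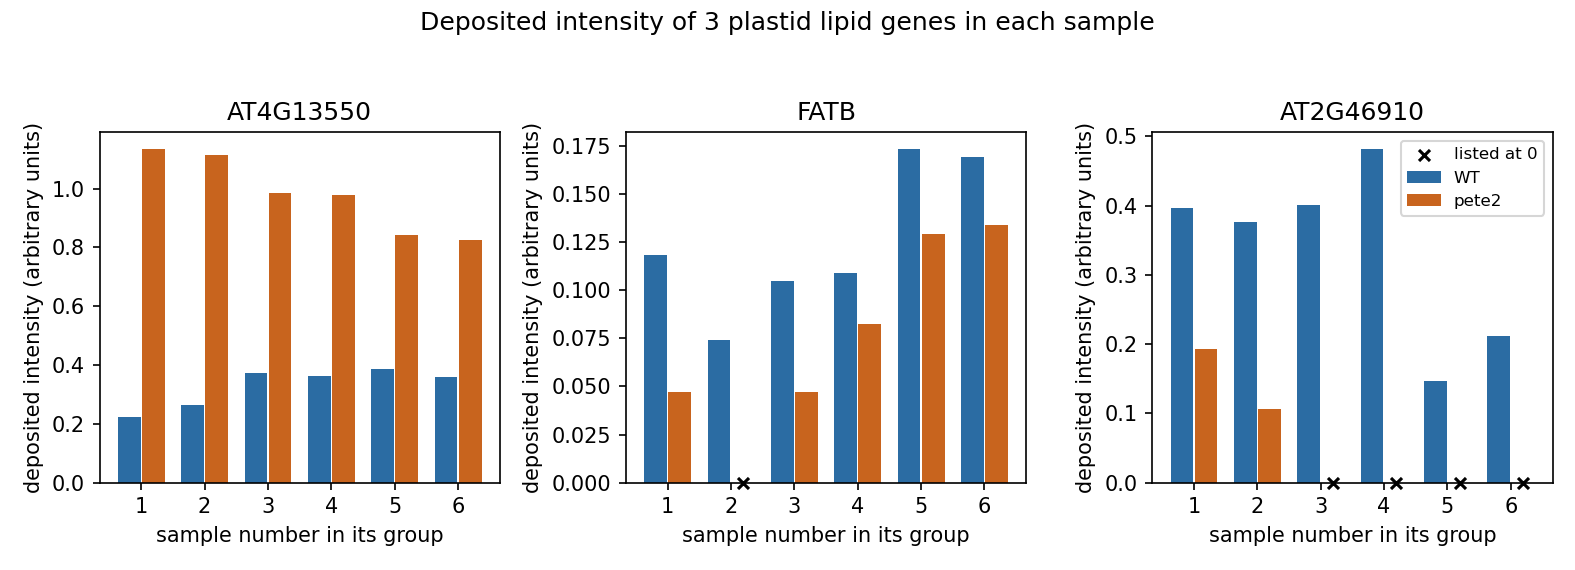
Deposited intensity (vertical axes, linear, arbitrary units, a scale of its own for each gene) of AT4G13550, FATB and AT2G46910 in samples 1 to 6 (horizontal axes) of WT (blue) and pete2 (orange), with crosses where a sample was listed at 0. AT4G13550 lies between 0.825 and 1.14 in pete2 and between 0.222 and 0.385 in WT, FATB has 1 value at 0 and AT2G46910 has 4, all of them in pete2.

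The size of the AT4G13550 difference was not the same across the sample numbers before scaling. In samples 1 and 2 the mean deposited intensity of pete2 was 4.61 times that of WT. In samples 3 and 4 it was 2.67 times, and in samples 5 and 6 it was 2.24 times. The deposited values were higher in pete2 samples 1 and 2 than in the other pete2 samples, and lower in WT samples 1 and 2 than in the other WT samples. After normalization the log2 differences of these pairs of numbers were 2.27, 1.87 and 1.99. The scaling of the samples therefore moved this gene's difference, which was 1.60 on the log2 scale without scaling and 2.30 with the samples scaled to a common median.

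The lipase gene was also among the steadiest probes within the groups. Its coefficient of variation was 11.8% in WT and 4.37% in pete2 after normalization. Its pooled within-group SD was 0.131 on the log2 scale, and the median over the 1740 probes above 0 in all samples was 0.620. Of those 1740 probes 6 had a smaller one. This spread entered the earlier choice of the gene, so it describes the gene and supports nothing.

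AT2G46910, the fibrillin family gene, was measured in all 6 WT samples and in 2 of 6 pete2 samples. Its deposited intensity in WT samples 1 to 6 was 0.396, 0.376, 0.401, 0.482, 0.147 and 0.212. In pete2 it was 0.193 and 0.107 in samples 1 and 2, and it was listed at 0 in samples 3, 4, 5 and 6. The groups overlapped, since pete2 sample 1 lay above WT sample 5 and both pete2 values above 0 lay near the lower WT values. Normalized intensities averaged 0.294 ± 0.130 over the WT samples and 0.0404 ± 0.0578 over the pete2 samples (SD, n = 6 each, zeros at the floor). The log2 difference was -4.14 ± 0.918 (SE).

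The size of this difference rests on the floor, because 4 of 6 pete2 values have no measured level. With the floor at the 10th percentile of the positive values in place of the 1st, the log2 difference was -2.16, and with 0.1 added to every value in place of a floor it was -1.55. In samples 1 and 2 alone, where both groups were above 0, the deposited intensity of pete2 was 0.488 and 0.284 times that of the WT sample of the same number. The normalized log2 difference there was -1.88. This last comparison was chosen after the values were seen.

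The zeros of AT2G46910 fell in the pete2 samples that held more zeros over the whole array, samples 3 to 6. The part of those samples' zeros in the difference was not tested. Of the 2586 tested probes above 0 in every WT sample, 73 (2.82%) were listed at 0 in at least 4 pete2 samples. Of the same probes, 31 (1.2%) had the arrangement of AT2G46910, at 0 in pete2 samples 3 to 6 and above 0 in samples 1 and 2. That arrangement was read from this gene's own values, so its share is a description. Within WT, samples 5 and 6 had its lowest values, 0.147 and 0.212, and the fewest probes at 0 among all samples (15.8% and 15.7%).

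**Figure D2:**
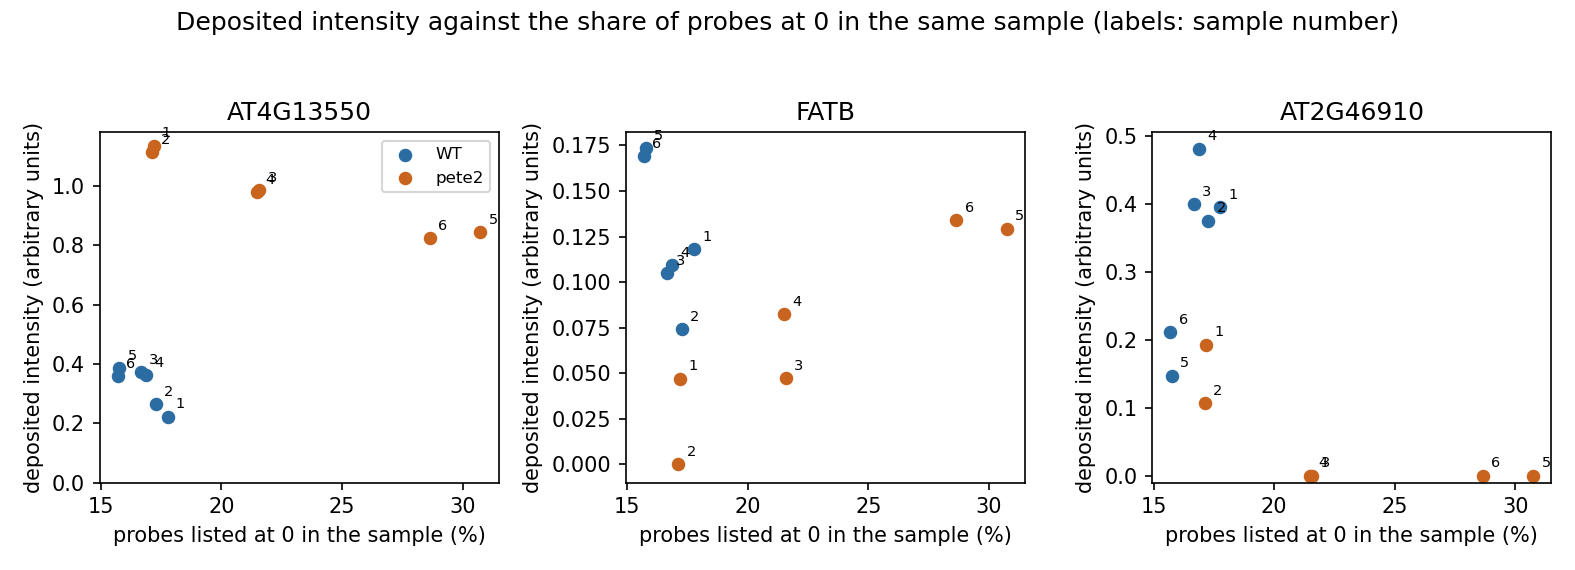
Deposited intensity of each gene (vertical axes, linear, arbitrary units) against the percentage of all probes listed at 0 in the same sample (horizontal axes), with WT in blue, pete2 in orange and the sample number beside each point. The 4 pete2 samples with 21.5% to 30.7% of probes at 0 hold all the zeros of AT2G46910, whereas FATB is at 0 in pete2 sample 2, with 17.1% of probes at 0.

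FATB, the thioesterase gene, lay below the median deposited intensity of each sample except pete2 samples 5 and 6. Its difference had no settled direction. Its deposited intensity in WT samples 1 to 6 was 0.118, 0.0742, 0.105, 0.109, 0.174 and 0.169. In pete2 it was 0.0469 in sample 1, listed at 0 in sample 2, and 0.0473, 0.0825, 0.129 and 0.134 in samples 3 to 6. The groups overlapped, and in both the highest values were those of samples 5 and 6. As deposited, each pete2 sample lay below the WT sample of the same number, with means of 0.0734 ± 0.0523 for the mutant and 0.125 ± 0.0389 for the wild type (SD, n = 6 each). The numbers do not establish that samples were paired, so this is a description of 6 values against 6.

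Normalization changed that order for FATB. Normalized intensities averaged 0.101 ± 0.0237 over the WT samples and 0.127 ± 0.111 over the pete2 samples (SD, n = 6 each), so the mean was higher in pete2. The log2 difference was -0.50 ± 0.840 (SE), with the opposite sign because the value at 0 weighs more on a log scale. Pete2 samples 5 and 6 were raised to 0.259 and 0.262, above every WT sample, while pete2 sample 1 was 0.0311. Without pete2 sample 2, the one at 0, the log2 difference was 0.23. It was 0.21 with cyclic loess, 0.076 with the higher floor, 0.017 with the 0.1 added in place of a floor, and -1.31 without scaling, so its sign depended on the processing.

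**Figure D3:**
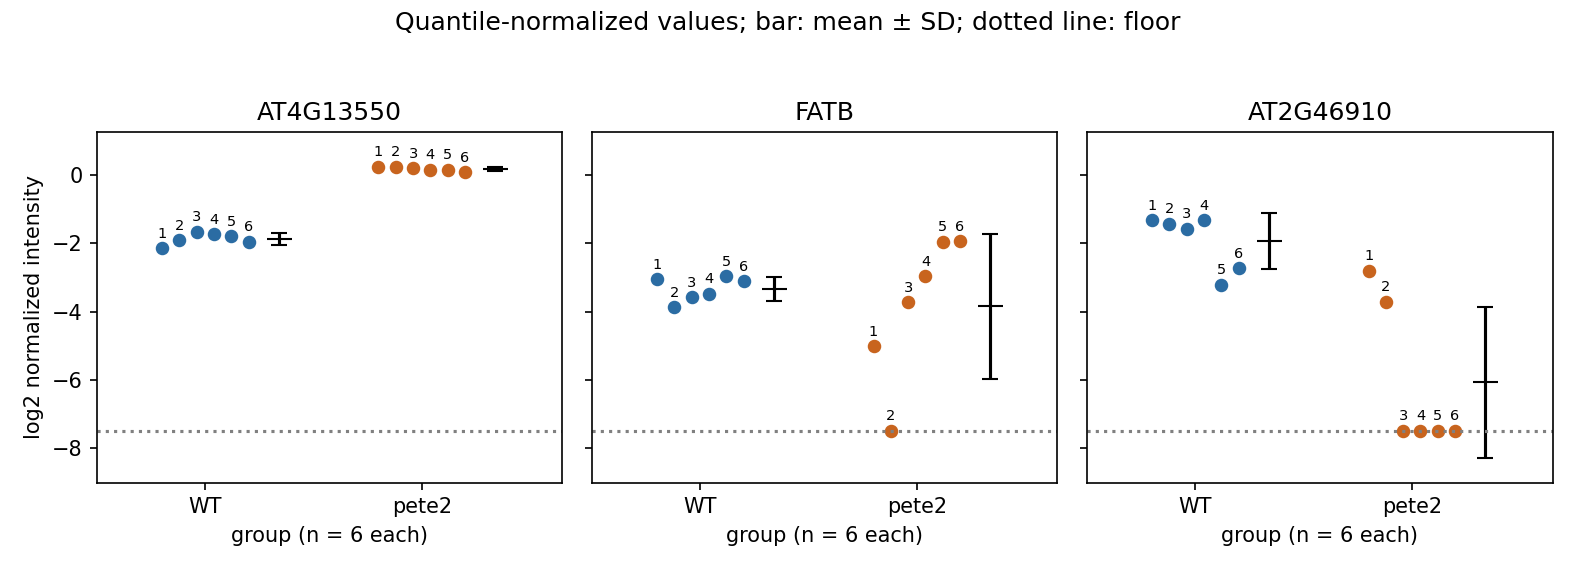
Log2 normalized intensity (shared vertical axis) of the 3 genes in WT (blue) and pete2 (orange), each point 1 sample with its number, the black bars the mean ± SD of 6 samples and the dotted line the floor at which values of 0 were set. The 6 pete2 points of AT4G13550 lie together above its WT points, those of FATB spread from the floor to above WT, and 4 of AT2G46910 lie on the floor.

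Among themselves the 3 genes did not share one pattern. After each group's mean was subtracted from the log2 values, Pearson's r over the 12 samples was -0.79 between FATB and AT2G46910, -0.33 between AT4G13550 and FATB and 0.22 between AT4G13550 and AT2G46910. After normalization FATB was highest in samples 5 and 6 of pete2, where AT2G46910 was at 0. FATB was lowest in pete2 samples 1 and 2, where AT2G46910 was measured. As deposited, the highest FATB values were those of WT samples 5 and 6 (0.174 and 0.169). Values at the floor enter these coefficients and the samples share array-wide shifts, so they are given as descriptions. Samples 1 and 2, 3 and 4, and 5 and 6 of a group also resembled each other across the array, with an estimated correlation of 0.525, which leaves fewer independent points than 12.

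The genes most like each member were sought among those whose own probe was above 0 in all samples (334 for AT4G13550 and 335 for each of the others), by the same r after group means were removed. For AT4G13550 they were AT2G04790 (r = 0.84), AT5G40030 (r = 0.79) and AT4G19900 (r = 0.78). Of these 3, AT4G19900 was also higher in pete2, by 2.08 on the log2 scale, while AT2G04790 had a log2 difference of 0.09 and AT5G40030 one of -1.11. For FATB they were AT3G06870, AT5G15280 and AT4G05070, with r from 0.88 to 0.89 and log2 differences of 0.23, -1.89 and 0.61. For AT2G46910 they were AT4G31530 (r = 0.87), LAS (AT1G55580, r = 0.87), a transcription factor gene of axillary meristem formation, and AT1G01730 (r = 0.81). Their log2 differences, in that order, were -1.01, -0.28 and 0.04. Values of FATB and AT2G46910 at the floor enter these coefficients. The search took the highest of these many coefficients, each over 12 samples.

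**Figure D4:**
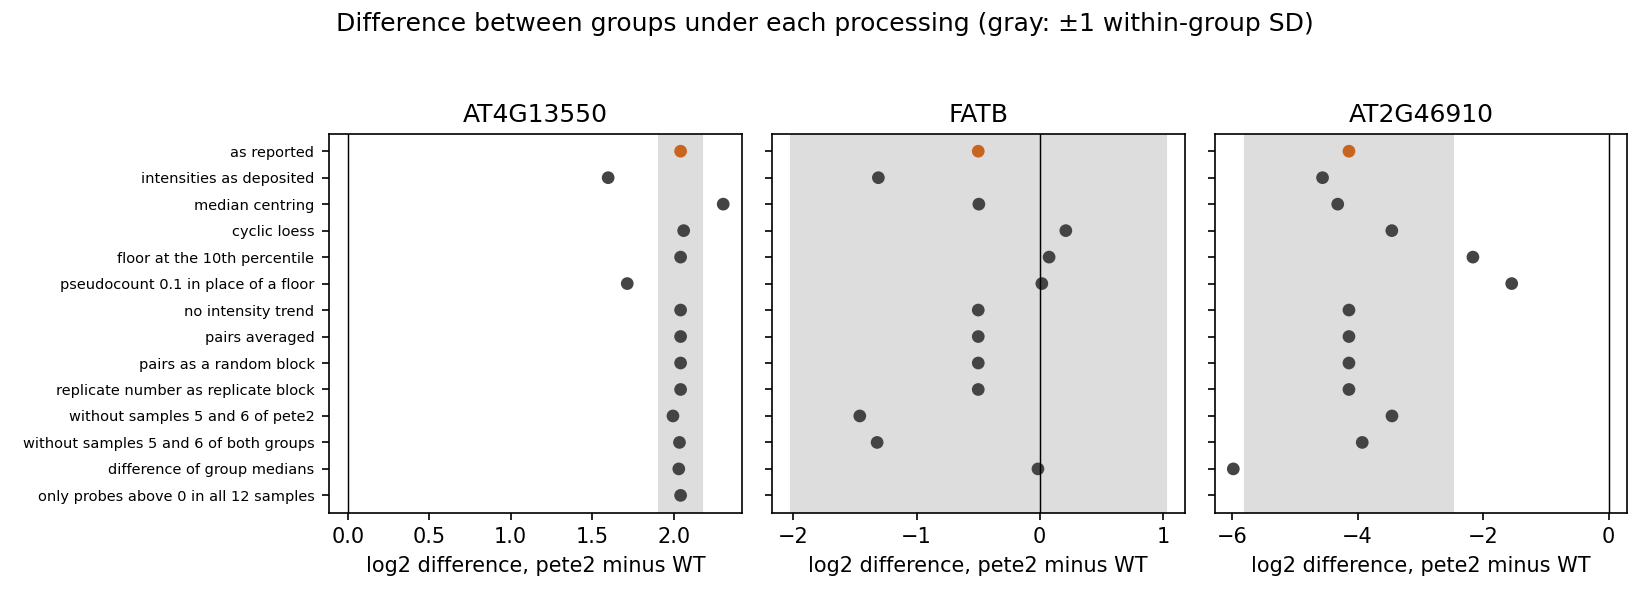
Log2 difference, pete2 minus WT (horizontal axes), of each gene under the processing reported and each alternative (rows), with the gray band 1 within-group SD on either side of the reported value (orange). AT4G13550 stays between 1.60 and 2.30, FATB lies on both sides of 0, and AT2G46910 stays below 0 while its size varies. The probes of FATB and AT2G46910, which hold zeros, have no value where all samples had to be above 0.

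Around these genes, 7 lists of lipid genes with 149 loci held 7 other genes with a probe of their own. Of these, 4 were fibrillin genes, 2 belonged to plastid fatty acid synthesis and 1 was a lipase gene. The remaining lists, of other parts of lipid metabolism, held none. One of the 7 passed the test, upward (limma, Benjamini-Hochberg adjusted p below 0.05 over all 3321 probes), 0 fell, also at an unadjusted p under 0.05, and 6 did not pass. Of all probes tested 11.2% passed, 4.91% upward and 6.29% downward, so 1 of 7 is near the background. With the pairs of sample numbers as a random block 5.06% of all probes passed and with the pairs averaged 0.331% did, and 0 of the 7 genes passed in either. The median log2 difference of the 7 genes was -0.12, with 3 above and 4 below 0, and that of all tested probes was -0.01.

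The gene that rose was AT1G24360, which encodes a 3-ketoacyl-ACP reductase of plastid fatty acid synthesis, the enzyme that carries out the first reduction in each round of chain elongation. Its deposited intensity in WT samples 1 to 6 was 0.132, 0.0951, 0.125, 0.116, 0.555 and 0.352. In pete2 samples 1 to 6 it was 0.540, 0.509, 0.242, 0.238, 0.223 and 0.174. The groups overlapped through WT sample 5, which lay above all 6 pete2 samples, and WT sample 6, which lay above 4 of them. Normalized, it averaged 0.184 ± 0.131 over the WT samples and 0.388 ± 0.0634 over the pete2 samples (SD, n = 6 each), a log2 difference of 1.32 ± 0.376 (SE, limma adjusted p = 0.0397). The pairs of numbers 1 and 2, 3 and 4, and 5 and 6 had log2 differences of 2.05, 1.75 and 0.17, so the difference was carried by samples 1 to 4.

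The call of AT1G24360 was lost without scaling (log2 difference 0.68, adjusted p = 0.347), with the pairs of numbers as a random block (adjusted p = 0.113) and with them averaged (0.349). It was also lost with the replicate number as a block (0.0625), without an intensity trend (0.0503), without pete2 samples 5 and 6 (0.0903) and on leaving out 1 sample in 10 of 12 cases, where the adjusted p of all 12 lay between 0.00564 and 0.0825. It held without WT sample 5 (0.00564) and without WT sample 6 (0.0368). It also held with median centring, cyclic loess, the higher floor and the pseudocount, with adjusted p between 0.0353 and 0.0396, among probes above 0 in all samples (0.0197) and without samples 5 and 6 of both groups (0.00200).

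AT5G16230, of the stearoyl-ACP desaturase family that places the first double bond in a plastid acyl chain, averaged 0.186 ± 0.0606 normalized units over the WT samples and 0.168 ± 0.0394 over the pete2 samples (SD, n = 6 each). Its log2 difference was -0.12 ± 0.294 (SE, limma adjusted p = 0.820). Its deposited WT values lay between 0.145 and 0.361 and its pete2 values between 0.0494 and 0.260, and the groups overlapped.

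Beside AT4G13550, 1 other of the 17 lipases listed had its own probe. This was AT3G61680, which encodes PLIP1, a plastid lipase that supplies polyunsaturated fatty acid from thylakoid lipid to seed oil. It was at 0 in pete2 samples 1 and 2 and above 0 in the other 10 samples. Its deposited values were 0.0155 to 0.0849 in WT and, where above 0, 0.000671 to 0.0308 in pete2. The zeros of this lipase were thus in the pete2 samples in which AT4G13550 was highest as deposited. Its log2 difference was -0.35 ± 0.850 (SE, limma adjusted p = 0.819). This value rests in part on sample 6, where normalization reversed the order of the groups. WT sample 6 (deposited 0.0155) went to the floor, and pete2 sample 6 (deposited 0.000671) was raised to 0.0498. As deposited, each pete2 sample lay below the WT sample of the same number. Without scaling the log2 difference was -2.41 and passed the test (adjusted p = 0.0349).

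Of the 14 fibrillin loci listed, 4 beside AT2G46910 had a probe of their own, and 0 of the 4 passed the limma test, with a median log2 difference of 0.27. At an unadjusted p under 0.05, 1 of the 4 did (AT5G09820), as did 26% of all probes tested. AT2G35490 averaged 0.276 ± 0.0992 normalized units over the WT samples and 0.240 ± 0.134 over the pete2 samples (SD, n = 6 each), a log2 difference of -0.32 ± 0.397 (SE). AT5G09820, a fibrillin known to act in the synthesis of plastoquinone's solanesyl side chain, averaged 0.0405 ± 0.0250 over the WT samples and 0.103 ± 0.0482 over the pete2 samples (SD, n = 6 each), a log2 difference of 1.43 ± 0.527 (SE, limma adjusted p = 0.105). The adjusted p of AT5G09820 was 0.0395 among the probes above 0 in all samples and 0.0499 without pete2 sample 2, but 0.386 with the pairs of numbers as a random block and 0.400 with them averaged. Without scaling its log2 difference was 0.36 (adjusted p = 0.683). AT1G51110 had a log2 difference of 0.83 and AT5G19940 one of -0.29, with adjusted p of 0.212 and 0.854.

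The pattern of zeros of AT2G46910 was not found in these 4 fibrillin genes. AT1G51110, AT2G35490 and AT5G09820 were above 0 in all 12 samples, and AT5G19940 was at 0 in pete2 sample 5 alone. A like count of zeros was nevertheless seen in the family, on a probe that lists the 2 fibrillin genes AT3G58010 and AT2G42130. It had 0 zeros in WT (0.0181 to 0.121) and 4 in pete2 (highest value 0.0631). The log2 difference of that probe was -1.39 (limma adjusted p = 0.352). Another probe that lists the same 2 genes was at 0 in all 12 samples. Of the 2586 tested probes above 0 in every WT sample, 2.82% were at 0 in at least 4 pete2 samples. Deposited AT1G51110 was nevertheless low in pete2 samples 5 and 6, at 0.0368 and 0.0129, against 0.173 and 0.147 in samples 1 and 2. Whether the difference of AT2G46910 differs from those of its relatives was not tested.

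**Figure D5:**
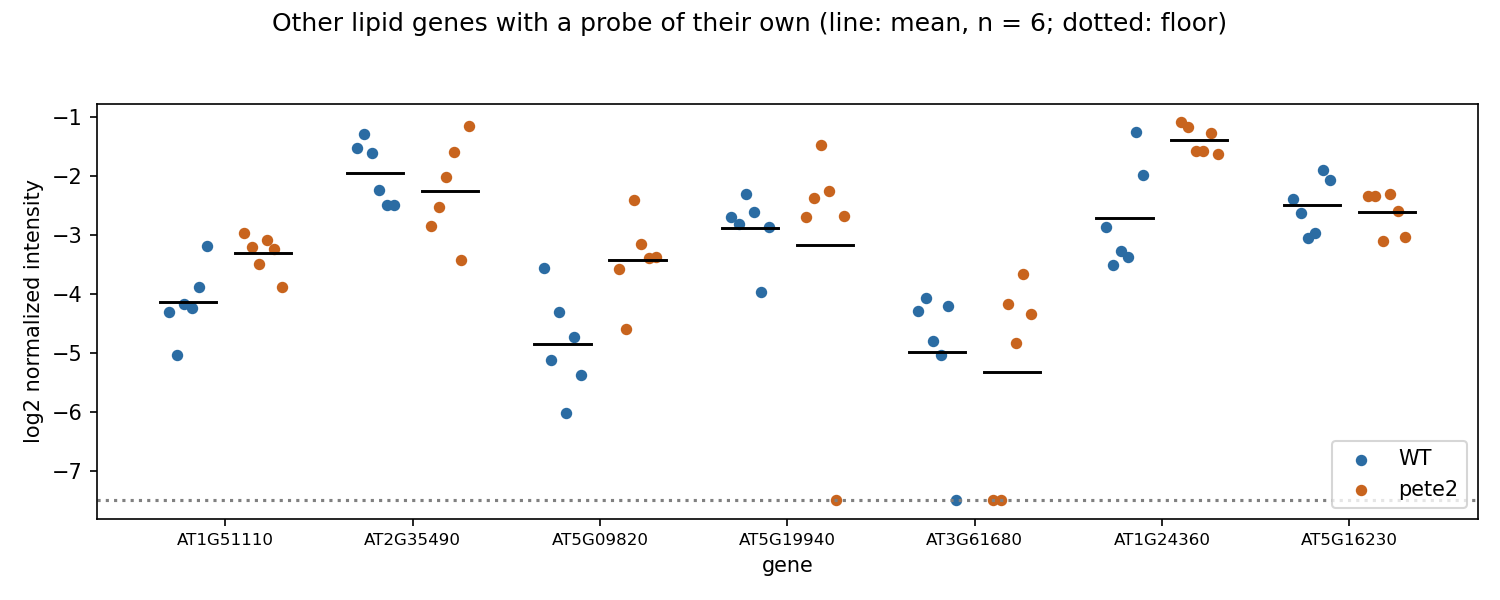
Log2 normalized intensity (vertical axis) of the 7 other lipid genes with a probe of their own, each point 1 sample of WT (blue) or pete2 (orange), with lines at the means of 6 samples and the floor dotted. AT1G24360, from 0.184 to 0.388 in mean normalized intensity, is the 1 gene that passed the test, with WT sample 5 inside the pete2 range, and AT5G19940 and AT3G61680 have values on the floor.

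Probes that list several genes gave no further reading of the members. One lists FATB together with the related thioesterase genes AT4G13050 and AT3G25110, and another lists AT2G46910 with the fibrillin genes AT4G22240 and AT4G04020. Both were listed at 0 in all 12 samples. A probe that lists 4 other fibrillin genes (AT5G09820, AT4G22240, AT4G04020 and AT2G35490) was bright enough to be above 0 throughout, with WT values between 0.531 and 1.13 and pete2 values between 0.482 and 0.898, and the signal cannot be divided among its genes. Its log2 difference was 0.14 (limma adjusted p = 0.757). One probe that lists the dehydratase genes of fatty acid synthesis AT5G10160 and AT2G22230 had WT values between 0.504 and 0.983. Its pete2 values lay between 0.422 and 1.34, with a log2 difference of 0.33 (limma adjusted p = 0.436). A different probe with the same genes was at 0 in 5 WT and 5 pete2 samples, with a log2 difference of 0.565 (limma adjusted p = 0.630).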

How the data were processed

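Transcript levels were read on an array from 12 total RNA samples. For each of 3439 probes the deposited table gives a linear intensity in every sample. No label or header read here says how the authors scanned, background-corrected or scaled these deposited intensities. The number of arrays limits the precision. Per the platform's probe table, 692 probes have 1 gene, 870 several and 1877 are not listed. Of the 692, 690 matched a locus of RefSeq assembly TAIR10.1, used for names alone.

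Intensities were quantile normalized, a floor was placed at the 1st percentile of the positive results, which also replaced every deposited 0, and log2 was taken. Leaving out 118 probes that were 0 throughout gave 3321. The test was limma 3.58.1 under R 4.3.3 (lmFit, eBayes with an intensity trend, Benjamini-Hochberg adjustment over all probes). The limma calculation was tested on simulated data with independent samples and no values at 0. That check does not cover the zeros of these data or the likeness between samples of a pair of numbers. Members and lists were chosen with earlier results of these data known. Named genes are the members, each lipid list gene with its own probe, and for each member the 3 genes with the highest group-centred r. A planned keyword list was not used, because the tables here hold no gene descriptions.

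Alternatives covered scaling, floor, pseudocount, filter, variance trend, paired numbers, a replicate block and left-out samples. Deviations of same-numbered samples correlated across probes at 0.136 to 0.283 for numbers 3 to 6, but at 0.020 and 0.041 for numbers 1 and 2. Pairing was to be accepted only where every number exceeded 0.1, so the numbers were not taken as pairing the samples.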

Additional observations from a re-analysis of the deposited data

Results flagged for a closer look

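In 3 of the 20 sets of 6 samples examined (10 genes in 2 groups), 1 sample stood far from the rest, by a gap to its nearest neighbour that exceeded Dixon's critical value as a share of the set's whole log2 range. Chance gives about 1 such case in 20 sets. None of the 3 was a set of AT4G13550, FATB or AT2G46910. The fibrillin gene AT5G19940 had its lowest value in sample 5 of both groups, with a gap of 0.663 of the range in WT and 0.797 in pete2, where the sample was listed at 0. The lipase gene AT3G61680 lay at the floor in WT sample 6 (deposited 0.0155), with a gap of 0.717. The size of both gaps to the floor depends on the floor chosen.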

How the results depend on the processing

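AT4G13550 kept its direction under all 12 alternatives planned (log2 difference 1.60 to 2.30) and in the 12 fits that left out 1 sample (1.98 to 2.09). The gene was chosen for this difference and its groups do not overlap, so its kept direction is no support. The difference moved by more than the gene's within-group SD without scaling (1.60), with median centring (2.30) and with the pseudocount of 0.1 (1.71). AT2G46910 kept its direction too (-4.80 to -3.87 with 1 sample left out), but was -2.16 with the higher floor, -1.55 with the pseudocount, -5.98 as a difference of group medians and -1.88 in samples 1 and 2, the last 2 chosen after seeing the data. FATB changed sign with cyclic loess (0.21), the higher floor (0.076) and the pseudocount (0.017), and ran from -0.89 to 0.23 with 1 sample left out, the highest without pete2 sample 2. Over all probes, 372 were called, 168 with the pairs of numbers as a random block, 11 with them averaged, and 293 to 423 with 1 sample left out. With the replicate number as a block 324 were called.

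Of the 7 other lipid genes 1 was called. The count was 2 among probes above 0 in all samples, 0 with no intensity trend, pairs averaged, pairs as a random block, the replicate block or without pete2 samples 5 and 6, and 0 to 1 with 1 sample left out. Without pete2 sample 2 the 1 call was AT5G09820 (adjusted p = 0.0499). Signs turned for AT1G51110 without scaling (-0.26), for AT3G61680 with the higher floor (0.065) and, with 1 sample left out, between -0.81 and 0.084, the values above 0 being those without pete2 sample 1 or 2. AT5G19940 turned with the higher floor (0.21), the pseudocount (0.083), without samples 5 and 6 of pete2 (0.65) or of both groups (0.40), and ran from -0.63 to 0.57 with 1 sample left out, above 0 without pete2 sample 5. AT5G16230 turned without samples 5 and 6 of both groups (0.23) and ran from -0.23 to 0.00052 with 1 left out, above 0 without WT sample 5. None of these turned values passed the test. The cause was not tested.

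The zeros limit what can be said of the genes that have them. Without a background level, differences that involve a value at 0 have a direction at most, and no size that is free of the floor.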
